A study of Homo sapiens with 6 samples.

Results

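Plasma membrane amino acid transporters were followed in A549 cells, an established human lung adenocarcinoma line, after knock-down of KMT9α. The 10 genes were taken by name from the deposited table of 23180 gene symbols: SLC7A5, SLC3A2, SLC7A6, SLC43A1, SLC1A5, SLC1A4, SLC7A1, SLC7A2, SLC38A1 and SLC38A2. Where a gene had several transcripts, the one with most counts over the 6 samples stood for it. Of the samples, 3 had been transfected with siControl, a control siRNA, and 3 with siKMT9α, an siRNA against the mRNA of N6AMT1, which encodes the KMT9α subunit of the histone H4 methyltransferase KMT9. All 6 samples were wild-type A549 cells at passage 11, and the study's methods give 65 nM siRNA and day 3 for the harvest. The comparison asks which transporter mRNAs change when KMT9α is depleted by 1 siRNA in 1 cell line. The samples are labelled biological replicates. Whether they came from separate transfections was not given in the sources used here, so p-values measure the spread between these samples.

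Amino acids cross the plasma membrane through solute carriers that differ in substrate and in driving force. SLC7A5 (LAT1) imports leucine and other large neutral amino acids in exchange for intracellular amino acids such as glutamine, and reaches the membrane only as a heterodimer with the glycoprotein SLC3A2 (CD98 heavy chain). SLC1A5 (ASCT2) and SLC38A1 and SLC38A2 (SNAT1 and SNAT2) bring in glutamine and small neutral amino acids with sodium, SLC1A4 (ASCT1) exchanges serine, alanine and cysteine, and SLC7A1 and SLC7A2 (CAT1 and CAT2) carry arginine and lysine. Imported leucine and arginine are read by sensors upstream of the kinase complex mTORC1. Many of these genes are known targets of ATF4, which binds amino acid response elements, and of MYC, which binds E-boxes.

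As a description planned for all 10 genes, the promoters were read for these elements. RefSeq promoter windows of 300 bases, from 250 before to 50 after an annotated start, were found for 9 of the 10 genes, in 16 windows. The letters TGATGNAA, the core of the amino acid response element, were searched on both strands and stood in a window of 5 of the 9 genes, against 3.62% of all 35116 windows. The E-box letters CACGTG stood in a window of 3 genes, against 7.26% of all windows. No gene held either motif in more than 1 of its windows. The members are counted by gene, with 1 to 3 windows each, and all promoters by window. These shares are therefore not like for like, and neither is a test. The following 4 windows hold a match, in capitals. They are shown for the LAT1 and CD98 pair, which rose, and for the 2 genes with the largest decreases, and are written in the direction of the gene in build GRCh38.p14.
SLC7A5, chr16:87869458-87869757, minus strand, CACGTG starting 130 bases before the start: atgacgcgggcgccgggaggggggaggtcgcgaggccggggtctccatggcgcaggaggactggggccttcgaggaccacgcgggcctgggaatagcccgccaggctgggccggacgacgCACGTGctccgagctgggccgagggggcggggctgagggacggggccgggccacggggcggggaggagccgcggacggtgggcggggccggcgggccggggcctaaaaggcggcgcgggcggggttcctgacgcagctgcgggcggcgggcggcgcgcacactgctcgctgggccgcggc
SLC3A2, chr11:62881449-62881748, plus strand, 1 of its 3 windows, an amino acid response element core on the opposite strand 37 bases after the start: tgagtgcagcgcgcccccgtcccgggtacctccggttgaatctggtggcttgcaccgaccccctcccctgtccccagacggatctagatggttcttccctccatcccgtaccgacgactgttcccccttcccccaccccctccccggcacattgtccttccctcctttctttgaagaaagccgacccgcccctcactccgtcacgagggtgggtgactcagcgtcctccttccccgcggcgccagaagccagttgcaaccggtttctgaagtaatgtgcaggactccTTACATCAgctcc
SLC1A4, chr2:64989149-64989448, plus strand, 1 of its 2 windows, the same core on the opposite strand 7 bases before the start: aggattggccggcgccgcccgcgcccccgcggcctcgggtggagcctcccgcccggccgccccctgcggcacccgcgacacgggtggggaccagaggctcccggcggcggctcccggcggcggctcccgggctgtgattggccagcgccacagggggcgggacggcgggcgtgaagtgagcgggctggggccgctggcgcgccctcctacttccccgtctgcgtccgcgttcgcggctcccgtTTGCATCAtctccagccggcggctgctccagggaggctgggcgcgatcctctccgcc
SLC43A1, chr11:57515653-57515952, minus strand, 1 of its 2 windows, CACGTG starting 112 bases before the start: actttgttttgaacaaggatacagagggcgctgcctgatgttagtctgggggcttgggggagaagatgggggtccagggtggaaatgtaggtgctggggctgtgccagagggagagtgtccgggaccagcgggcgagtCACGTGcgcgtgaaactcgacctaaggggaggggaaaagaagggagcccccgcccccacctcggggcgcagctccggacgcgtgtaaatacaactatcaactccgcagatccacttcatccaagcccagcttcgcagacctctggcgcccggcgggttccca
Of the 5 genes with the response element core, SLC3A2 rose and SLC1A4, SLC7A1, SLC38A1 and SLC1A5 fell with siKMT9α. By its place along the gene, the SLC3A2 window with the core lies at a later start than that of the chosen transcript NM_001013251. The window nearest the start of that transcript, chr11:62880646-62880945, held no match. Of the 3 genes with an E-box, SLC7A5 rose and SLC43A1 and SLC1A5 fell. For SLC1A5, the window nearest the start of the chosen transcript NM_005628, chr19:46788545-46788844, held neither motif. Its core and its E-box stood in windows at later starts. Which window of SLC38A1 belongs to its chosen transcript was not settled. Whether any factor was bound was not measured.

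The knock-down was present in each siKMT9α sample. N6AMT1 had 10.2, 10.9 and 11.4 CPM (each gene's reads relative to the library total, scaled by TMM factors) in the siControl samples and 2.87, 3.22 and 3.35 CPM in the siKMT9α samples, a log2 fold change of -1.77 (standard error, SE, 0.12, adjusted p = 1.43e-10). Totals over 1 transcript per gene ran from 13740097 to 19832395.5 counts per sample. The epithelial keratins KRT8 and KRT18 were abundant, at a mean of 1281 and 2041 CPM with siControl, and fell to 528 and 1210 CPM. EPCAM and CDH1 were low, although the line is epithelial, and changed in opposite directions. EPCAM fell from 3.85 to 0.572 CPM (log2 fold change -2.76, adjusted p = 2.84e-09), and CDH1 rose from 3.38 to 8.60 CPM (1.34, adjusted p = 3.11e-07). Of 6 markers of other cell types, CD3E and COL1A2 were at 0 in every sample, PTPRC, PECAM1 and VWF stayed between 0 and 0.124 CPM, and COL1A1 had 4.28 CPM with siControl and 2.79 CPM with siKMT9α. In bulk RNA, fewer cells of a state and less RNA per cell cannot be told apart.

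All 10 transporters passed the filter on low counts, and they split evenly by direction. SLC7A5, SLC3A2, SLC7A6, SLC38A2 and SLC7A2 were higher with siKMT9α at an adjusted p under 0.05, and SLC1A5, SLC1A4, SLC7A1, SLC38A1 and SLC43A1 were lower. These calls are from the quasi-likelihood F test of edgeR, with p-values adjusted by Benjamini and Hochberg's method across 13877 genes. Among all genes tested, 37.1% were called higher and 38.5% lower, so calls of both kinds were the rule in this comparison. The median log2 fold change of the 10 genes was 0.01, beside -0.01 over all genes. The threshold that the study set, a p below 1e-08 with a log2 fold change beyond 0.26, was applied here to p-values of the F test. Under it, 1 of the 10 was higher (SLC7A2) and 2 were lower (SLC1A4 and SLC43A1), beside 13.5% and 10.7% of all genes. With the exact test of edgeR in its place, 2 were higher and 3 lower, and 5924 of all genes passed, against 3357 with the F test. After TMM scaling, in 9 of the 10 genes the siControl and siKMT9α samples did not overlap, which held for 77% of all genes. For each of these 9, a two-sided exact permutation test gave p = 0.1, the smallest that 3 against 3 samples allow. With per-sample offsets for GC content and transcript length, an alternative chosen after seeing the data, SLC7A6 lost its call and turned to -0.06. SLC7A1 went to -0.74, SLC38A1 to -0.48, SLC3A2 to 0.35 and SLC1A5 to -0.13. SLC7A2 went to 0.93, SLC1A4 to -1.44, SLC43A1 to -1.13, SLC38A2 to 0.26 and SLC7A5 to 0.44. Scaling by library size alone gave 0.07 for SLC3A2 (adjusted p = 0.225), 0.16 for SLC7A6 and -0.26 for SLC38A1, while the median over all genes went to -0.12.

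**Figure D1:**
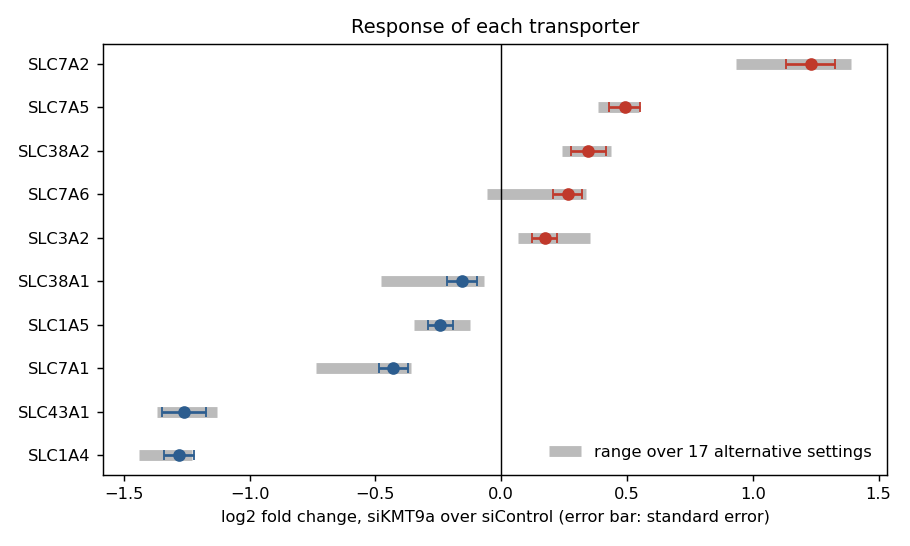
Log2 fold change of each transporter, siKMT9α over siControl (horizontal axis), with the standard error as a bar, and in grey the range over 17 alternative settings of the analysis. SLC7A2 stood at 1.23 and SLC1A4 at -1.28, and the grey range crossed 0 for SLC7A6 alone.

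SLC7A5, the catalytic light chain of LAT1, was among the most abundant mRNAs of these cells and rose with siKMT9α. Its deposited transcript NM_003486 spans chr16:87863629-87903100 of hg19 on the minus strand. It had 2684, 2361 and 2590 CPM in siControl replicates 1 to 3 and 3517, 3341 and 3868 CPM in the siKMT9α samples. Each siKMT9α sample lay above each siControl sample, and the gap between the groups was wider than the range within siControl. The log2 fold change was 0.49 (SE 0.06, adjusted p = 5.86e-07), a fold of 1.405. Ranked per kilobase of transcript among 13877 genes, SLC7A5 moved from place 110 to place 83.

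SLC3A2, the heavy chain that anchors SLC7A5, SLC7A6 and the cystine carrier SLC7A11 in the membrane, rose less than its partner. Transcript NM_001013251, at chr11:62648344-62656355 on the plus strand, had 2298.5, 2180.2 and 2271 CPM with siControl and 2534, 2448 and 2623 CPM with siKMT9α. The groups did not overlap, but the log2 fold change was only 0.17 (SE 0.05, adjusted p = 0.0043), and 78.8% of all genes changed by more. Per kilobase, SLC3A2 was the most abundant of the 10 genes in both groups, and its rank among all genes was 42 with siControl and 41 with siKMT9α.

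The light chain and its heavy chain were compared within each sample. In CPM per kilobase, the ratio of SLC7A5 to SLC3A2 was 0.494, 0.458 and 0.483 in the siControl samples and 0.588, 0.578 and 0.624 in the siKMT9α samples. Every siKMT9α ratio lay above every siControl ratio, and the mean was 1.25-fold higher (exact permutation p = 0.1). The heavy chain had the higher level on this per-length scale in all 6 samples. With the GC and length offsets, SLC7A5 changed by 0.44 and SLC3A2 by 0.35 (log2), and the log2 change of their ratio went from 0.32 to 0.09.

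SLC7A6 (y+LAT2), the other light chain among the 10, exchanges arginine for neutral amino acids and also needs SLC3A2. Transcript NM_001076785, at chr16:68298419-68335726 on the plus strand, had 249.7, 215.1 and 232.4 CPM with siControl and 273.7, 264.5 and 298.5 CPM with siKMT9α. Its samples did not overlap between groups, and the log2 fold change was 0.26 (SE 0.06, adjusted p = 0.000414). The deposited span overlaps that of SLC7A6OS, at a mean of 47.5 CPM, and whether reads were assigned by strand was not given in the sources used here. The ratio of SLC7A5 to SLC7A6 per kilobase rose from 15.3 ± 0.28 to 17.9 ± 0.232 (SD, n = 3, exact permutation p = 0.1), and that of SLC7A6 to SLC3A2 was 0.0312 ± 0.00153 and 0.0333 ± 0.00101 (exact permutation p = 0.3). With the GC and length offsets, the log2 change of the SLC7A5 to SLC7A6 ratio went from 0.23 to 0.50, and that of the SLC7A6 to SLC3A2 ratio from 0.09 to -0.41.

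SLC43A1 (LAT3) carries leucine and other large neutral amino acids by facilitated diffusion, without SLC3A2, and moved against SLC7A5. Transcript NM_003627, at chr11:57252004-57283192 on the minus strand, had 23.0, 21.98 and 22.9 CPM in the siControl samples and 8.62, 9.21 and 10.3 CPM in the siKMT9α samples. The siControl samples lay close together, and the siKMT9α samples were all far below them. Its log2 fold change was -1.26 (SE 0.09, adjusted p = 1.13e-10), a fold of 0.417, and only 13.4% of all genes changed by more. SLC43A2, which encodes the related carrier LAT4, had 6.16 ± 0.881 CPM with siControl and 5.71 ± 0.557 CPM with siKMT9α (SD, n = 3, adjusted p = 0.427). The ratio of SLC7A5 to SLC43A1 per kilobase was 64.5, 59.5 and 62.7 with siControl and 226.0, 200.9 and 208.9 with siKMT9α, a 3.4-fold rise (exact permutation p = 0.1).

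**Figure D2:**
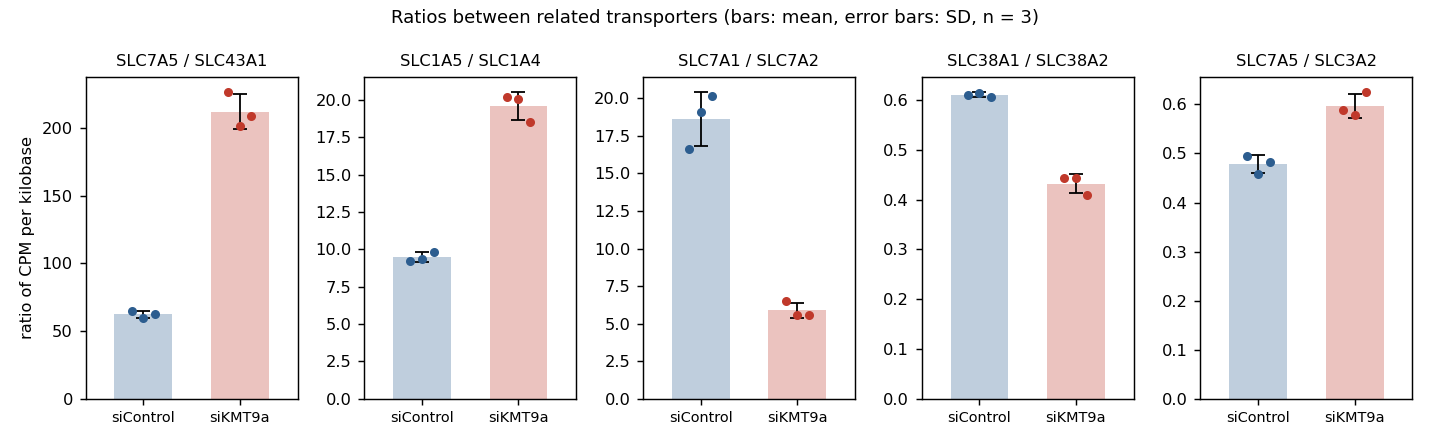
Ratio of CPM per kilobase between related transporters in the siControl and siKMT9α samples (vertical axes, each from 0), with bars for the mean, error bars for the SD and a point for each of 3 samples. The ratio of SLC7A5 to SLC43A1 went from 62.2 to 212.0 and that of SLC1A5 to SLC1A4 from 9.48 to 19.6, while that of SLC7A1 to SLC7A2 fell from 18.6 to 5.88.

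Among the sodium-dependent exchangers of the SLC1 family, both genes fell, by very different amounts. SLC1A5, the main glutamine exchanger of many tumor lines, is listed as NM_005628 at chr19:47278140-47291842 on the minus strand. It had 1036, 976 and 1029.6 CPM with siControl and 852, 817 and 901 CPM with siKMT9α. No siKMT9α sample reached the lowest siControl sample. The log2 fold change was -0.24 (SE 0.05, adjusted p = 0.000243), a fold of 0.845.

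SLC1A4, the serine, alanine and cysteine exchanger, had the largest decrease of the 10 genes. Transcript NM_003038, at chr2:65216495-65251000 on the plus strand, had 179.9, 167.2 and 167.9 CPM in the siControl samples. In the siKMT9α samples it had 67.8, 65.4 and 78.0 CPM. The lowest siControl sample was far above the highest siKMT9α sample, the log2 fold change was -1.28 (SE 0.06, adjusted p = 3.93e-13), and 13.0% of all genes changed by more. Its rank per kilobase went from 2297 to 4763. A second transcript, NM_001193493, shares most of its reads and gave a log2 fold change of -1.28 as well. SLC1A4 and SLC7A6 each held 1 match to the seed of the siRNA against KMT9α in their annotated 3′ UTR and the other 8 genes held none, beside 14% of 12808 genes tested, and the part of such matches in these changes was not tested. The ratio of SLC1A5 to SLC1A4 per kilobase was 9.24, 9.37 and 9.84 with siControl and 20.2, 20.05 and 18.5 with siKMT9α, a 2.06-fold rise (exact permutation p = 0.1).

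The cationic amino acid transporters moved in opposite directions. SLC7A1, the widely expressed arginine and lysine carrier, is listed as NM_003045 at chr13:30083551-30169825 on the minus strand and had 310.2, 266.9 and 290.0 CPM with siControl. It had 213.0, 203.3 and 227.5 CPM with siKMT9α. The groups did not overlap, and the log2 fold change was -0.43 (SE 0.06, adjusted p = 1.47e-06).

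SLC7A2, an inducible carrier of the same substrates, was the lowest of the 10 genes per kilobase in siControl cells and had the largest increase. Its transcript NM_001008539 spans chr8:17354597-17428077 on the plus strand. It had 19.2, 14.4 and 14.9 CPM in the siControl samples and 33.9, 37.6 and 42.1 CPM in the siKMT9α samples. No siControl sample reached the lowest siKMT9α sample, with a log2 fold change of 1.23 (SE 0.10, adjusted p = 9.97e-10) and a fold of 2.34. Counts behind these values were 234 to 362.5 per siControl sample and 448 to 803.5 per siKMT9α sample, the fewest among the genes that rose. The ratio of SLC7A1 to SLC7A2 per kilobase was 16.6, 19.1 and 20.1 with siControl and 6.49, 5.58 and 5.58 with siKMT9α, a fold of 0.316 (exact permutation p = 0.1), and SLC7A1 stayed the more abundant of the pair.

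The sodium-coupled neutral amino acid transporters SLC38A1 and SLC38A2 are neighbours on the minus strand of chromosome 12, at chr12:46576841-46663208 (NM_030674) and chr12:46751971-46766645 (NM_018976). SLC38A2, whose mRNA is known to rise on amino acid starvation, had 1252, 1058 and 1120.1 CPM with siControl and 1338, 1394 and 1629 CPM with siKMT9α. Its log2 fold change was 0.35 (SE 0.07, adjusted p = 0.000169). SLC38A1, the net glutamine importer, had 1331.5, 1133 and 1181 CPM with siControl and 1035, 1076 and 1162 CPM with siKMT9α.

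SLC38A1 was the gene of the 10 whose groups overlapped: the highest siKMT9α sample lay above the lowest siControl sample. Its log2 fold change of -0.16 (SE 0.06, adjusted p = 0.0258, exact permutation p = 0.2) was the weakest call. Without siControl replicate 1 it was -0.07 and was no longer called, and the call was also lost without siControl replicate 3 or siKMT9α replicate 1 or 2. The ratio between the neighbours was tighter than either level: SLC38A1 to SLC38A2 per kilobase was 0.611, 0.615 and 0.605 with siControl and 0.444, 0.443 and 0.410 with siKMT9α (exact permutation p = 0.1).

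Over all 7 ratios compared, the adjusted exact permutation p was 0.117 for 6 and 0.3 for SLC7A6 to SLC3A2, so none passed 0.05, and a design of 3 against 3 could not have done so. The other transcripts listed for SLC3A2, SLC1A5, SLC1A4, SLC7A2, SLC7A6, SLC38A1 and SLC43A1 moved the same way as those chosen. They share exons, and therefore reads, with the chosen transcript and add no independent evidence.

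The levels of the 10 genes spanned a wide range. Per kilobase of transcript, the siControl order was SLC3A2 (1175 ± 32.3 CPM per kilobase, SD, n = 3), SLC7A5 (562.5 ± 36.7), SLC1A5 (354.7 ± 11.6), SLC38A2 (235.6 ± 20.4), SLC38A1 (143.8 ± 12.2), SLC7A1 (39.5 ± 2.96), SLC1A4 (37.4 ± 1.55), SLC7A6 (36.7 ± 2.73), SLC43A1 (9.04 ± 0.228) and SLC7A2 (2.14 ± 0.35). SLC7A1, SLC1A4 and SLC7A6 were neighbours whose samples overlapped, and all other neighbours were apart. With siKMT9α these 3 genes separated, to 29.3 ± 1.67, 15.4 ± 1.46 and 44.04 ± 2.78 CPM per kilobase, and no samples of neighbours among them overlapped. SLC38A2 came level with SLC1A5, at 299.5 ± 31.8 beside 299.8 ± 14.7 CPM per kilobase, and the samples of these 2 genes overlapped. SLC7A2 passed SLC43A1, at 5.01 ± 0.544 beside 3.74 ± 0.331 CPM per kilobase.

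**Figure D3:**
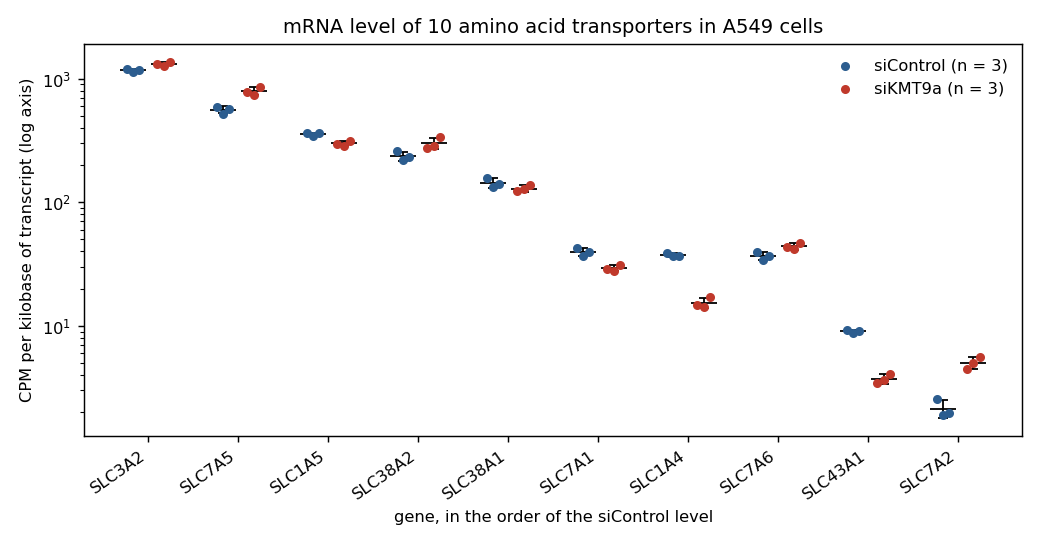
CPM per kilobase of transcript (log axis) of each transporter in the siControl and siKMT9α samples, with 1 point per sample and a black bar for the mean with its SD. The genes stand in the siControl order, from SLC3A2 at 1175 down to SLC7A2 at 2.14, and the points of SLC7A1, SLC1A4 and SLC7A6 lie together with siControl and apart with siKMT9α.

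Summed over the 10 genes, the level was 9384, 8394 and 8919 CPM in the siControl samples and 9873, 9655 and 10839 CPM in the siKMT9α samples. The groups did not overlap on this scale (exact permutation p = 0.1). Scaled by library size alone, they overlapped, at 9696, 8747 and 9245 CPM with siControl and 9513, 9309 and 10455 CPM with siKMT9α (exact permutation p = 0.4). In CPM, which are not divided by transcript length, SLC7A5 alone made up 28.6% ± 0.456 of this sum with siControl and 35.3% ± 0.605 with siKMT9α (SD, n = 3). SLC7A5 with SLC3A2 made up 53.9% ± 0.726 and 60.4% ± 0.789 on the same scale. Per kilobase, SLC3A2 stood above SLC7A5 in both groups.

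The 10 genes also shared a pattern among the replicates that the comparison does not use. All 10 were highest of their group in siControl replicate 1, all 10 were lowest in siControl replicate 2, and all 10 were highest in siKMT9α replicate 3. Of all genes tested, 36.6% were highest in siControl replicate 1, 33.8% lowest in siControl replicate 2 and 39.2% highest in siKMT9α replicate 3, and 11.7% showed all 3 features together. Over all genes, the 2 samples in which all 10 were highest also lay furthest from the rest of their group. The mean chi-square per gene between counts scaled to library totals was 4.705 and 4.017 for siControl replicate 1 against replicates 2 and 3. Those 2 gave 1.807 with each other. For siKMT9α replicate 3 it was 5.254 and 4.572 against replicates 1 and 2, which gave 1.358. By total counts, siKMT9α replicate 3 was the deepest of its group, at 19832395.5 against 13740097 and 14201988. The shallowest of its group was siControl replicate 2, at 15551778 against 18238034.5 and 18568639.5. The pattern was named after these values were seen. Whether same-numbered samples were paired was not given, and the origin of the pattern, with any part of depth in it, was not tested.

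By root mean square distance of centred log2 CPM over the 6 samples, 111 genes of the lists and the other members were compared with SLC7A5 and with SLC3A2. The profiles nearest to SLC7A5 were those of FNIP1 (0.0665), a partner of folliculin in amino acid sensing, ACADSB (0.0669), an enzyme of isoleucine breakdown, and SLC6A15 (0.0779), a neutral amino acid transporter. Those nearest to SLC3A2 were HIF1A (0.0451), WDR59 (0.0577), a subunit of GATOR2, and GLUD1 (0.0631), glutamate dehydrogenase.

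Other plasma membrane amino acid transporters were mostly silent or low in these cells. Of 28 further genes, 10 could be tested, of which 1 rose, 4 fell and 5 did not pass the test, with a median log2 fold change of -0.21. Beside the counts of this and each later list, 37.1% of all genes tested were called higher and 38.5% lower. SLC7A11, the cystine importer that also pairs with SLC3A2, was the most abundant, with 525.8, 445.0 and 454.4 CPM in the siControl samples and 240.6, 243.6 and 295.4 CPM in the siKMT9α samples. All siKMT9α samples lay below the siControl samples, and its log2 fold change of -0.87 (SE 0.07, adjusted p = 2.08e-09) was opposite to that of SLC7A5. SLC3A1, the heavy chain of the kidney cystine carrier, fell from 23.2 ± 0.987 to 6.73 ± 1.26 CPM (SD, n = 3, log2 fold change -1.76). SLC6A15 rose from 61.9 ± 4.37 to 82.0 ± 4.15 CPM (log2 fold change 0.41).

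Amino acid carriers inside the cell changed in both directions. Of 9 lysosomal transporters tested, 2 rose and 5 fell, with a median of -0.27. The cystine exporter CTNS fell from 83.5 ± 2.24 to 44.3 ± 2.63 CPM (SD, n = 3, log2 fold change -0.91) and the cationic amino acid exporter PQLC2 from 26.3 ± 1.48 to 16.04 ± 0.798 CPM (-0.71). MFSD12, which brings cysteine into the lysosome, rose from 94.1 ± 2.66 to 112.2 ± 5.66 CPM (0.26), and SLC15A3, a histidine and peptide carrier, rose from 0.788 ± 0.239 to 2.00 ± 0.115 CPM (1.33).

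Of 10 mitochondrial carriers tested, 8 fell and 2 rose, beside 38.5% and 37.1% of all genes, with a median of -0.25. SFXN1, the mitochondrial serine carrier, fell from 59.6 ± 1.48 to 39.1 ± 1.04 CPM (SD, n = 3, log2 fold change -0.61), and its relative SFXN3 fell by 1.14 on the log2 scale. SLC25A44, the carrier of branched-chain amino acids and the most abundant of the list, fell by 0.16. SLC25A29, which carries basic amino acids, rose from 12.6 ± 0.85 to 23.0 ± 1.5 CPM (0.87), and SLC25A38, the glycine carrier, rose from 44.4 ± 1.61 to 69.0 ± 3.23 CPM (0.63).

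Genes of amino acid sensing upstream of mTORC1 were divided, with 8 of 21 tested higher, 8 lower and 5 not called, and a median of 0.08. NPRL2, a subunit of GATOR1, fell from 28.0 ± 1.84 to 12.7 ± 0.675 CPM (SD, n = 3, log2 fold change -1.14), and KPTN, of the KICSTOR complex that recruits it to lysosomes, fell by 1.08. RRAGA, the most abundant Rag GTPase gene of the list, fell from 275.6 ± 4.53 to 187.4 ± 10.01 CPM (-0.56). GATSL3, which encodes the arginine sensor CASTOR1, rose from 10.5 ± 0.275 to 21.3 ± 3.44 CPM (1.00), and FNIP2 rose by 0.88.

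Enzymes that use the imported amino acids changed in both directions. Of 11 genes of glutamine, glutamate and aspartate metabolism tested, 4 rose and 4 fell, with a median of 0.07. The mitochondrial transaminase GOT2 rose from 263.7 ± 6.09 to 346.6 ± 11.3 CPM (SD, n = 3, log2 fold change 0.39). The cytosolic transaminase GOT1 fell from 170.2 ± 4.57 to 73.3 ± 0.588 CPM (-1.21), and PYCR1, of proline synthesis, fell by 1.09. ASNS, asparagine synthetase and a known ATF4 target, fell from 397.7 ± 5.06 to 324.3 ± 11.4 CPM (-0.29).

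All 11 genes of branched-chain amino acid breakdown were called, 4 higher and 7 lower, beside 37.1% and 38.5% of all genes. Over the 17 alternative settings, 3 to 4 of these genes were called higher and 5 to 7 lower, with 5 lower under the GC and length offsets. The median of the list was -0.29. BCAT1, the cytosolic transaminase and the most abundant, fell from 198.3 ± 9.21 to 126.2 ± 4.52 CPM (SD, n = 3, log2 fold change -0.65). BCKDK and PPM1K, the kinase and the phosphatase that act on the branched-chain ketoacid dehydrogenase in opposite ways, both fell, with log2 fold changes of -1.52 and -1.16. BCKDHB, a subunit of that enzyme, rose by 0.54 from 3.59 ± 0.145 CPM, and ACADSB rose by 0.38.

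In arginine and polyamine metabolism, 4 of 9 genes tested rose and 5 fell, with a median of -0.19. ASS1, which makes arginine from citrulline with ASL, had 84.1, 88.7 and 91.1 CPM in the siControl samples and 14.2, 12.2 and 13.1 CPM in the siKMT9α samples. This was the largest change of the fixed lists outside the cell type markers, at -2.74 (SE 0.07, adjusted p = 4.63e-17), beside the opposite changes of the arginine carriers SLC7A1 and SLC7A2. ODC1, which makes putrescine from ornithine, rose from 580.6 ± 28.8 to 900.2 ± 59.6 CPM (SD, n = 3, log2 fold change 0.63), and AZIN1, which protects it from degradation, rose from 160.3 ± 7.85 to 388.6 ± 15.6 CPM (1.28). GATM, of creatine synthesis, fell by 0.94.

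Among regulators of transporter genes and proteins, 8 of 16 tested rose and 8 fell, with a median of -0.01. ATF4 mRNA fell from 840.5 ± 21.3 to 735.6 ± 49.3 CPM (SD, n = 3, log2 fold change -0.19). CHAC1, a known ATF4 target that breaks down glutathione, fell from 128.0 ± 5.66 to 50.7 ± 1.8 CPM (-1.34), and ATF3, a stress-induced factor, rose from 64.7 ± 5.95 to 156.3 ± 0.42 CPM (1.27). Other genes linked to ATF4, named after their values were seen, were also split: EIF2AK4, which encodes the kinase GCN2 (log2 fold change -0.84), DDIT3 (-0.76), TRIB3 (-0.75) and CEBPG (-0.46) fell, and ATF5 (1.14) and CEBPB (0.27) rose. MYC, named in the same way, rose by 0.96 and EPAS1 (HIF-2α) by 0.54.

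Of the ubiquitin ligases of the list, NEDD4 and RNF5 had the largest changes. NEDD4L, named after its value was seen, rose from 66.2 to 105.4 CPM (log2 fold change 0.67). NEDD4, which acts on several membrane transporters, had 89.5, 85.3 and 85.4 CPM in the siControl samples and 291.7, 310.1 and 310.2 CPM in the siKMT9α samples, a log2 fold change of 1.81 (SE 0.05, adjusted p = 1.64e-16). RNF5, a ligase known to act on SLC1A5 and SLC38A2 protein, fell from 28.4 ± 0.622 to 11.7 ± 0.791 CPM (SD, n = 3, log2 fold change -1.29). Transporter protein and transport were not measured in these samples. The study also measured the proteome of A549 cells after this knock-down, and those data were not used here.

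**Figure D4:**
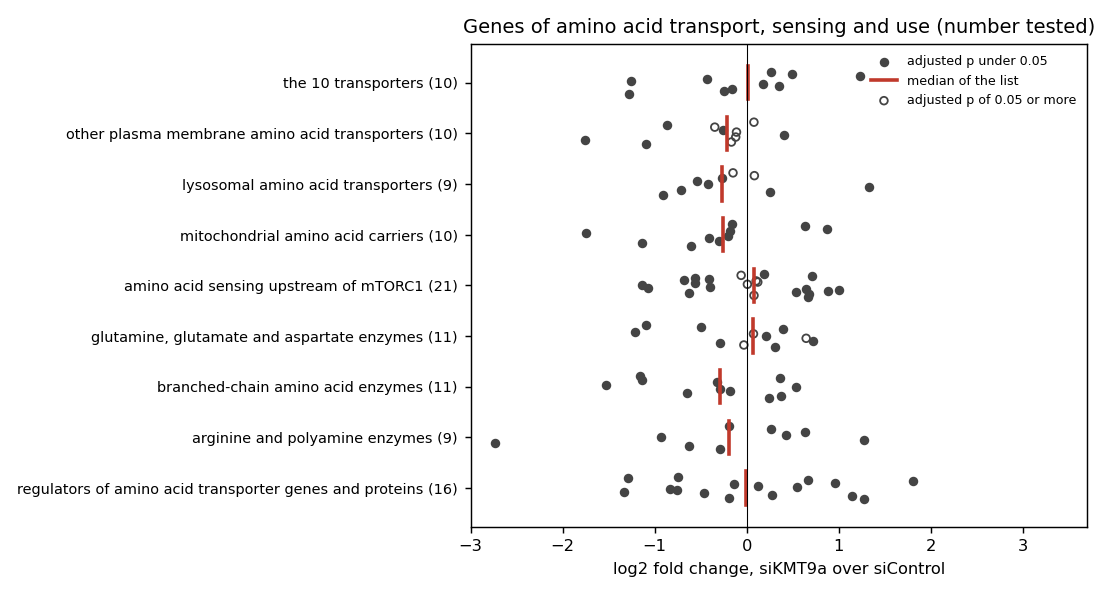
Log2 fold change of each gene tested, siKMT9α over siControl (horizontal axis), for the 10 transporters and for 8 lists of related genes, with the number tested in brackets. Filled points had an adjusted p under 0.05, open points did not, and red lines mark medians, which ran from -0.29 for branched-chain amino acid enzymes to 0.08 for amino acid sensing.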

How the data were processed

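RNA-Seq was analysed for 6 samples of A549 cells. Per the labels and the study's methods, STAR was used for alignment to hg19, HOMER for counting on RefSeq transcripts and edgeR for the authors' own comparison. The authors deposited estimated counts per transcript and sample without normalization, in steps of 0.5, and 36.4% of the values were not whole. Columns of the authors' comparison, holding the fold (a ratio) and p-values before and after adjustment, were deposited too and were not used. Of 38767 rows, 1182 lacked a gene symbol and counts and were left out, and no per-sample column was without a sample. The library type and the counting options were not given in the sources used here.

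Estimated counts were rounded and fitted with edgeR 4.0.16 in R 4.3.3 (TMM, filterByExpr, quasi-likelihood F test, all two-sided) over 13877 genes, with Benjamini-Hochberg adjustment. The biological coefficient of variation was 4.47%. Standard errors are the log2 fold change divided by the square root of F. CPM per kilobase used the deposited transcript lengths. Spans and annotation came from GRCh37, GC content was known for 97.5% of genes tested, and promoter windows came from RefSeq (GRCh38.p14).

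The members and lists were chosen with earlier results of these data known. By rule, all 10 members and N6AMT1 were named, and from each list the 2 largest changes in each direction among called genes with a mean of at least 1 CPM and the gene with the highest mean CPM, and the 3 profiles nearest to SLC7A5 and to SLC3A2. 1 result under this rule is not reported here. The other settings compared were DESeq2 1.42.0, the exact test of edgeR, RLE factors or library size alone for scaling, no filter on low counts or a minimum of 10 in each sample, all transcripts fitted together or summed per gene, a replicate block, and leaving out each sample. Offsets for GC content and length (splines of 5 degrees of freedom), alone or together with the block, were chosen after seeing the data.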

Additional observations from a re-analysis of the deposited data

How the results depend on the processing

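SLC7A5, SLC1A5, SLC1A4, SLC7A1, SLC7A2, SLC38A2 and SLC43A1 kept their direction and their call under all 17 alternatives. SLC3A2 lost its call with library size alone, at 0.0665, where the median over all genes moved from -0.0139 to -0.119. SLC7A6 turned to -0.0579 with GC and length offsets and to -0.0578 with the replicate block and these offsets, with no call in either. SLC38A1 lost its call with summed transcripts (-0.142), with the replicate block (-0.154, adjusted p = 0.0514) and without siControl replicate 1 or 3 or siKMT9α replicate 1 or 2, with a range of -0.201 to -0.0669 over the samples left out. For each of these the cause was not tested. Members higher under the study's threshold were 1 in the main analysis, 2 with DESeq2, the exact test or the offsets, 3 with no filter or the block and offsets, 0 with summed transcripts and 1 to 2 with a sample left out. Members lower were 2 in the main analysis, 3 with DESeq2, the exact test or no filter, 4 with the offsets, with or without the block, and 2 under all other settings. Over all genes this threshold called 3357, from 2164 with summed transcripts to 6070 with no filter. Of the other plasma membrane transporters, 1 was called higher, 3 with no filter or summed transcripts and 1 to 3 with a sample left out, and 1 under all others. Of the same list, 4 were called lower, 3 with at least 10 counts in every sample, 5 with library size alone or the offsets, 6 with no filter or summed transcripts and 4 to 7 with a sample left out. The ratio of SLC7A6 to SLC3A2 turned from a log2 change of 0.0922 to -0.41 with the offsets, and this setting for ratios and library size alone for the sum of the members were chosen after seeing the data. The deviations of same-numbered samples correlated at -0.0788, 0.022 and -0.0802, and the block changed no other call of a member. Whether same-numbered samples were paired in the experiment was not given in the sources used here, and weak correlations cannot decide it. Library size alone moved the split of all calls from 5150 higher and 5342 lower to 4359 and 6212.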

Other observations

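The pattern among replicates that all 10 transporters shared (highest of the group in siControl replicate 1, lowest in siControl replicate 2 and highest in siKMT9α replicate 3) was looked for in the lists of related genes after it had been seen. It was present in 2 of 10 other plasma membrane transporters, SLC7A11 and SLC6A6, and in 3 of 9 lysosomal transporters, SLC36A1, SLC38A9 and SLC15A4. It was also present in 2 of 11 branched-chain amino acid enzymes (ACADSB and DLD), 2 of 16 regulators (NEDD4 and NEDD4L), 1 of 11 enzymes of glutamine, glutamate and aspartate (ALDH18A1) and 1 of 4 epithelial markers (CDH1). It was present in 0 of 10 mitochondrial carriers, 0 of 21 genes of amino acid sensing and 0 of 9 genes of arginine and polyamine metabolism, beside 11.7% of all genes tested. SLC7A11 was thus like SLC7A5 and SLC3A2 among the replicates of each group, but opposite to them between the groups.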
